A study of Homo sapiens with 6 samples.

Results

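The genes described here encode the nuclear pore complex and the carriers that pass through it: nucleoporins, importins, transportins and exportins. They were picked by symbol from the deposited expression table, as every gene whose name starts with NUP, KPNA, KPNB1, IPO, XPO or TNPO in its numbered form, plus RANBP2, TPR, RAE1, SEH1L, NDC1, AAAS, POM121 and GLE1. The rule found 54 of the 15059 genes of the table. They comprise 29 pore subunits, 22 carriers and 3 entries that are not transport proteins, the antisense RNAs IPO9-AS1 and NUP50-AS1 and the pseudogene IPO5P1. The rule uses symbols and no measured value, though it was proposed with earlier results of these data known. The cells were NOMO-1, an established human line from acute myeloid leukaemia, and RNA was sequenced in 3 groups of 2 libraries. The control (sgNS+EV) had a guide that targets nothing together with an empty vector. In the knockout (sgMETTL16+EV) the guide targeted METTL16, with the vector again empty. The rescue (sgMETTL16+OE-METTL16) had the METTL16 guide and overexpressed METTL16. Every group had been transduced and expanded under puromycin, with no other treatment, and whether a group is a pool or 1 clone is not given in the sources used here. METTL16 is an RNA methyltransferase whose known targets are U6 small nuclear RNA and hairpins in the MAT2A transcript, which encodes an S-adenosylmethionine synthetase.

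The nuclear pore complex is a ring-shaped channel through the nuclear envelope, built from many copies of a set of nucleoporins. An inner ring and outer rings of Y-shaped complexes form its scaffold, membrane nucleoporins anchor it, and nucleoporins with phenylalanine-glycine (FG) repeats fill the channel. Carriers of the importin beta family bind a cargo, directly or through an importin alpha adaptor, cross the FG barrier and let go of the cargo under the control of the GTPase Ran. Dividing cells assemble new pores in every cycle, and NUP98 and NUP214 are known from gene fusions in acute leukaemia.

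Values are called the signal here, an abundance per gene from RSEM that is adjusted for transcript length, with no statement of whether it is TPM or FPKM. A signal of 1 over 2000 nt was estimated to stand for 46.1 to 49.9 reads, so that the median member rested on 3077 to 4076 reads per library. METTL16 itself had a signal of 9.89 and 9.63 in control, 6.05 and 5.83 in knockout and 12.3 and 12.1 in rescue libraries, and MAT2A one of 140.2 and 132 in control, 77.6 and 78.1 in knockout and 134 and 138 in rescue libraries. Of 10 myeloid marker genes, 8 were in the table, and their summed signal was 249 to 264 in control, 395 to 397 in knockout and 307 to 313 in rescue libraries. 7 of the 8 rose in the knockout by the test given below, as did 26.2% of all genes tested. Markers of other cell types were near the floor of the table, apart from CD2 at 2.86 to 3.02 in knockout and 0.64 to 0.79 in the other libraries. The part of the myeloid difference in the results below was not tested. Fewer cells of a type and less RNA per cell cannot be told apart in bulk RNA. Nothing states that the 2 libraries of a group came from separate cultures, so the tests measure the spread between these libraries only.

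METTL16 recognises a short motif in RNA, and the known substrate MAT2A carries several copies in its 3′ UTR. Both spellings searched here, UACAGAGAA and UACAGAAAA, were looked for on the sense strand of 1 transcript per gene (GENCODE 29, GRCh38). A match was found in 4 of the 50 tested pore and carrier genes (8.0%) and in 907 of the 10759 tested protein-coding genes (8.43%). It was present in 3 of 28 pore genes and 1 of 22 carriers. The median transcript was longer in the members, 5128 nt against 3055 nt. The 4 member sites all lie in coding sequence and are shown with 1 site of MAT2A for comparison, as RNA, 5′ to 3′, with the match in capitals.
IPO5: augucaaugcUACAGAGAAcugcaucuca
NUP58: gccaauggaaUACAGAGAAacacucucaa
NUP133: auggaauaccUACAGAAAAgaucagaucu
RANBP2: gaauuucauuUACAGAAAAcauggggucg
MAT2A: uggcguaggcUACAGAGAAgccuucaagc
The capitals stand at chr13:98019648-98019656 (plus strand) in IPO5 and chr13:25321044-25321052 (plus strand) in NUP58. They stand at chr1:229464648-229464656 (minus strand) in NUP133, chr2:108763872-108763880 (plus strand) in RANBP2 and chr2:85543812-85543820 (plus strand) in MAT2A. A match of letters is a description and not a binding site. In the knockout the 4 member genes went different ways, as given below: IPO5 and RANBP2 fell, NUP133 rose and NUP58 did not pass the test.

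Levels differed widely within each class. Pore genes had a mean control signal between 13.1 and 115, with a median of 29.7 over the 28 tested. The 22 carriers lay between 3.57 and 136, with a median of 32.7. XPO1, the receptor that exports proteins with leucine-rich signals, led in the control with a signal of 136 ± 6.17 (SD, n = 2). KPNB1, the importin beta that carries most adaptor-bound cargo, followed at 122 ± 4.85 (SD, n = 2). NUP210, a membrane glycoprotein of the pore, stood at 115 ± 6.23 (SD, n = 2), KPNA2 at 112 ± 6.14 (SD, n = 2) and IPO5 at 98.3 ± 3.21 (SD, n = 2). Control libraries of KPNB1 and NUP210 overlapped, as did those of NUP210 and KPNA2, so their order is within the spread. The next gene, TPR, had 56.6 ± 3.21 (SD, n = 2). NUP210 was thus the 1 pore gene among the 5 highest, the other 4 being carriers. At the other end stood IPO4, IPO13, AAAS and IPO11 with 11.3 to 13.3, and KPNA5 with 3.57 ± 0.11 (SD, n = 2). NUP210L, the germline relative of NUP210, and IPO5P1 stayed under a signal of 1 in all 6 libraries and were not tested.

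In knockout cells the pore and its carriers divided into genes that fell and genes that did not pass the test, with few that rose. The test was limma on log2(signal + 1) over 12734 genes, with an adjusted p under 0.05. Of the 52 members tested, 20 fell, 6 rose and 26 did not pass. Over all genes 13.5% fell and 26.2% rose. By class, 12 of 28 pore genes fell and 3 rose, and 8 of 22 carriers fell and 2 rose. The antisense entry IPO9-AS1 rose too. The median log2 change was -0.14 for the pore genes, -0.08 for the carriers and 0.07 for all genes. Control and knockout libraries did not overlap for 22 of 28 pore genes and 15 of 22 carriers, as was so for 68.5% of all genes tested.

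These counts move with single libraries and with scaling. Without knockout replicate 1, 12 members fell and 1 rose, against 1298 and 2065 of all genes. Without knockout replicate 2, 10 members fell and 3 rose, against 1182 and 2570. The second control library was low over all genes, with a median deviation of -0.10 on the log2 scale from the mean of the 6 libraries. Without it, 26 members fell and 3 rose, against 2257 and 2377 of all genes. Without the first control library, 16 members fell and 10 rose, against 1219 and 4127. With all 6 libraries 1723 genes fell and 3333 rose. After centring each library on its median, 30 members fell and 7 rose, against 3082 and 3251 of all genes. The share of calls that rose over all genes was then 51.3%, against 65.9% as deposited. Quantile normalization gave 29 members that fell and 7 that rose, with 49.7% of all calls upward.

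**Figure D1:**
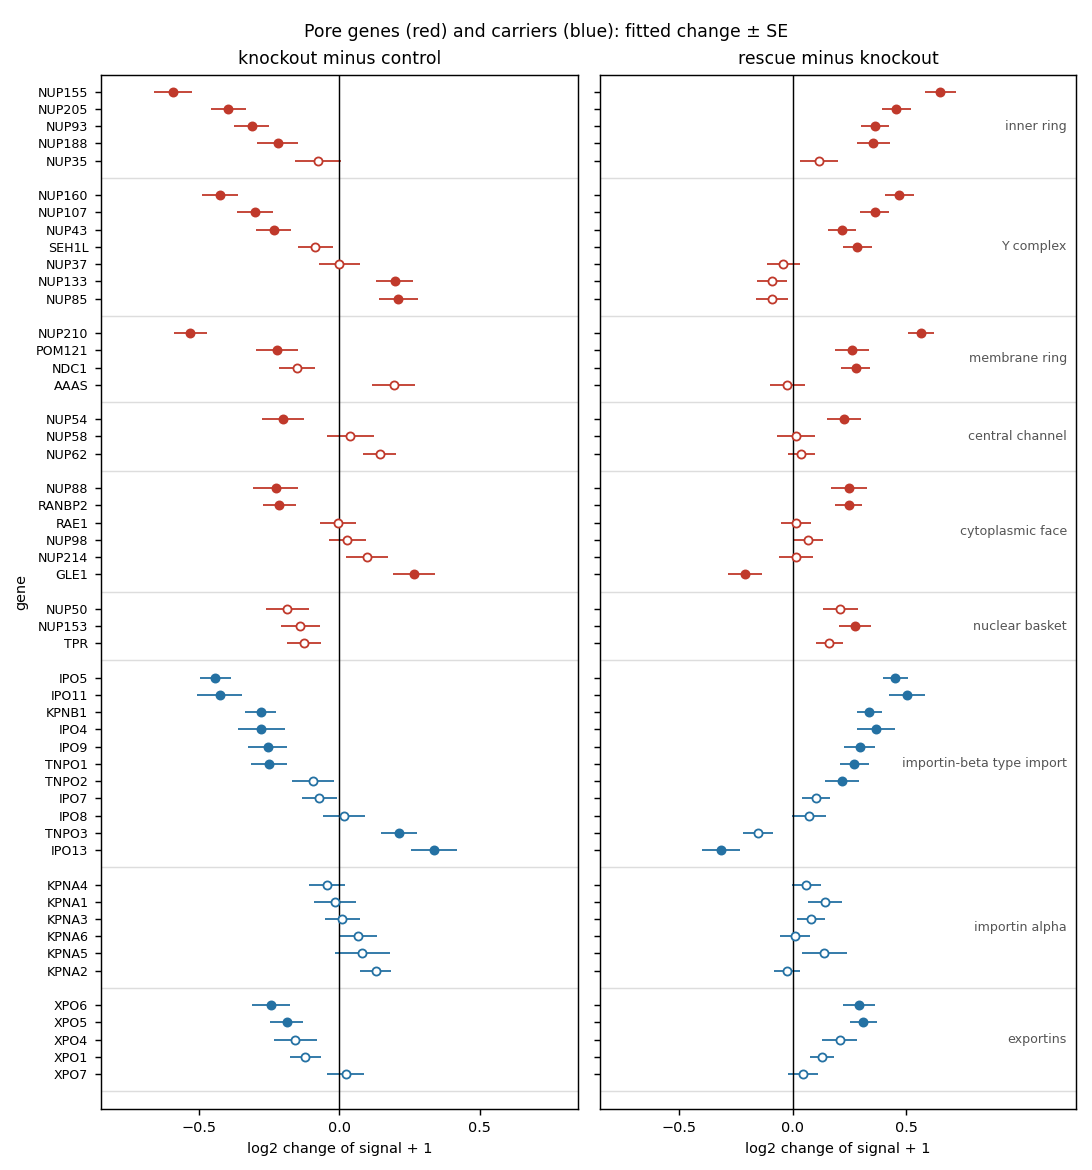
Fitted log2 change of signal + 1 with its standard error for the 50 tested pore genes (red) and carriers (blue), by structural class, knockout minus control on the left and rescue minus knockout on the right. Filled points passed an adjusted p under 0.05. The 5 inner ring genes all lie left of 0 in the knockout and right of 0 in the rescue, NUP35 without passing in either. The 6 importin alpha genes run from -0.04 to 0.13 in the knockout and from -0.03 to 0.14 in the rescue, none passing.

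The inner ring had the lowest median of the 6 pore classes, -0.31 over 5 genes, of which 4 fell. The shares over all genes, to set beside this and the class counts below, were 13.5% that fell and 26.2% that rose. NUP155, the scaffold subunit that links the inner ring to the membrane and the outer rings (chr5:37288137-37371181, minus strand, GRCh38), had a signal of 27.7 and 26.04 in control, 17.8 and 17.1 in knockout, and 27.8 and 28.2 in rescue cells. Both knockout libraries lay below all 4 others, which were close together. Its mean went from 26.9 ± 1.21 (SD, n = 2) in control to 17.5 ± 0.50 (SD, n = 2) in knockout and 27.99 ± 0.26 (SD, n = 2) in rescue cells. The log2 change, the lowest of any member, was -0.59 ± 0.07 (SE), limma adjusted p = 1.72e-05, and rescue against knockout gave 0.65 ± 0.07 (SE), limma adjusted p = 1.51e-05. NUP205, one of the pair of large solenoid subunits of the ring, had 39.3 and 36.5 in control, 28.8 and 28.3 in knockout, and 39.3 and 39.8 in rescue cells. Again the knockout libraries lay apart and below, with log2 changes of -0.40 ± 0.06 (SE), limma adjusted p = 0.000264 in the knockout and 0.46 ± 0.06 (SE), limma adjusted p = 0.000148 in the rescue.

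NUP93, which holds the inner ring subunits together, had a signal of 38.3 and 36.8 in control, 30.8 and 29.3 in knockout, and 38.7 and 39.2 in rescue cells. Control and knockout libraries did not overlap, and the log2 changes were -0.31 ± 0.06 (SE), limma adjusted p = 0.00141 and, for rescue against knockout, 0.36 ± 0.06 (SE), limma adjusted p = 0.000729. NUP188, the other large solenoid, had 28.98 and 25.2 in control, 22.7 and 23.4 in knockout, and 29.2 and 30.4 in rescue cells. Its control libraries were farther apart than those of NUP93, and both lay above the knockout. It fell by less (-0.22 ± 0.07 (SE), limma adjusted p = 0.0295), a call lost in 4 of 14 alternatives, among them without either knockout library or the first control library, and rose in the rescue (0.36 ± 0.07 (SE), limma adjusted p = 0.0026). NUP35, a small membrane-binding subunit, had 16.4 and 14.2 in control, 14.2 and 14.6 in knockout, and 16.05 and 15.3 in rescue cells. The second control library lay at the knockout level, and NUP35 passed neither test (-0.08, adjusted p = 0.482 and 0.12, adjusted p = 0.306). Within the ring, the ratio of NUP155 to NUP35 was 1.69 and 1.84 in control, 1.26 and 1.17 in knockout and 1.73 and 1.84 in rescue libraries. The pair was chosen after its values were seen. NUP155 and NUP35 had the lowest and the highest log2 change of the ring, so a lower knockout ratio follows from the choice.

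The Y complex, the repeating unit of the outer rings, held genes called in both directions. Of 7 genes 3 fell (42.9%) and 2 rose (28.6%) in the knockout, with a median of -0.09. Over all genes 13.5% fell and 26.2% rose, so the share of the Y complex that rose was near that of all genes. NUP160, at the end of 1 short arm of the Y, had a signal of 31.7 and 29.6 in control, 22.6 and 22.5 in knockout, and 31.7 and 31.6 in rescue cells. The knockout libraries agreed closely and lay below the rest, with log2 changes of -0.43 ± 0.06 (SE), limma adjusted p = 0.000185 in the knockout and 0.47 ± 0.06 (SE), limma adjusted p = 0.000145 in the rescue. NUP107, in the stem, had 35.98 and 35.2 in control, 29.5 and 27.9 in knockout, and 36.7 and 37.6 in rescue cells. The groups did not overlap, and the log2 changes were -0.30 ± 0.06 (SE), limma adjusted p = 0.00191 and 0.36 ± 0.06 (SE), limma adjusted p = 0.000766. NUP43, a small propeller subunit, had 37.1 and 34.95 in control, 30.5 and 30.4 in knockout, and 35.4 and 35.7 in rescue cells and fell (-0.23 ± 0.06 (SE), limma adjusted p = 0.00888), a call lost without either knockout library.

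NUP133, the stem subunit that binds NUP107, went the other way. Its signal was 33.1 and 30.1 in control, 36.5 and 36.2 in knockout, and 33.7 and 34.5 in rescue cells. Knockout libraries lay above all others, and NUP133 rose (0.20 ± 0.07 (SE), limma adjusted p = 0.0275). NUP85, in the other short arm, had 18.2 and 17.3 in control, 20.7 and 20.6 in knockout, and 19.6 and 19.1 in rescue cells, and rose as well (0.21 ± 0.07 (SE), limma adjusted p = 0.0265). Neither came down by the test in the rescue (-0.09, adjusted p = 0.321 for NUP133 and -0.09, adjusted p = 0.344 for NUP85). After quantile normalization NUP133 did fall from knockout to rescue. Both knockout calls are near the threshold. The call of NUP133 was lost in 7 of 14 alternatives and that of NUP85 in 5, in both with only the 2 groups fitted and without any 1 knockout or rescue library, and for NUP133 also without the second control library. SEH1L, which the Y complex shares with a nutrient-sensing complex, had 38.1 and 35.95 in control, 35.5 and 34.2 in knockout, and 41.8 and 43.5 in rescue cells. It did not pass in the knockout (-0.09, adjusted p = 0.296) and rose from knockout to rescue (0.29 ± 0.06 (SE), limma adjusted p = 0.00374), where both libraries lay above those of every other group. NUP37 passed neither test (0.00, adjusted p = 0.998 and -0.04, adjusted p = 0.711).

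Ratios within a library do not change when the library is multiplied by a constant, and these pairs were chosen after their values were seen. NUP160 over NUP133 was 0.958 and 0.984 in control, 0.618 and 0.623 in knockout and 0.939 and 0.917 in rescue libraries. NUP107 over NUP85 was 1.98 and 2.04 in control, 1.43 and 1.35 in knockout and 1.87 and 1.97 in rescue libraries. In both, knockout libraries were lowest and overlapped with neither other group. No test was run on the ratios, because of how the pairs were chosen.

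**Figure D2:**
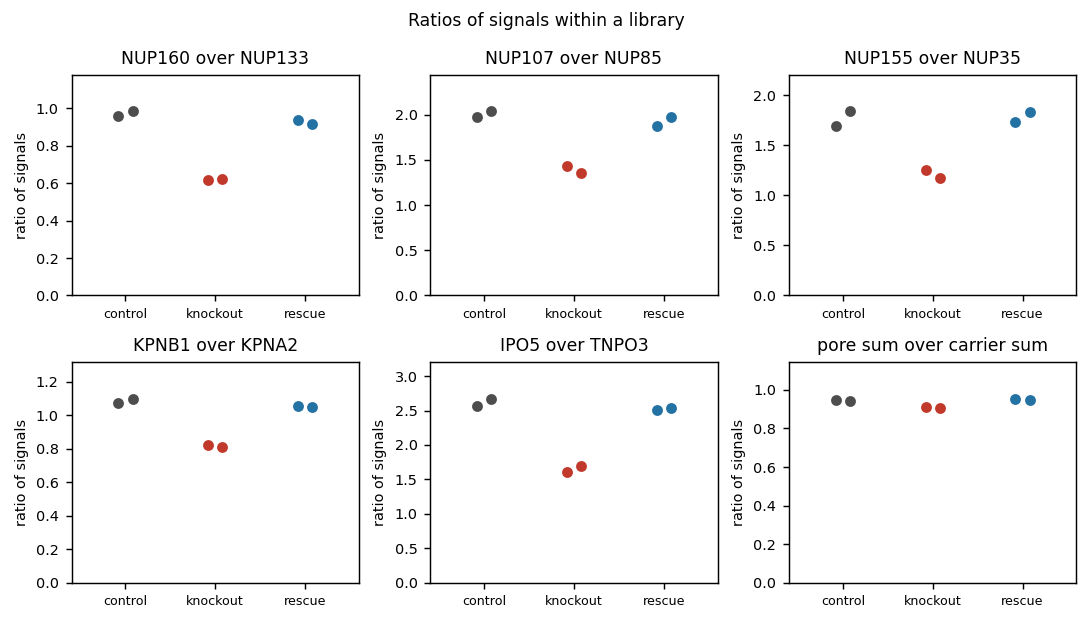
Ratio of signals within each library for pairs of genes, and for the summed pore signal over the summed carrier signal, each point 1 library, by group, on axes that start at 0. The pairs of genes were chosen after their values were seen. NUP160 over NUP133 is 0.618 and 0.623 in the knockout against 0.917 to 0.984 in the other 4 libraries.

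NUP205 fell and NUP133 rose in the knockout, and the 250 bases before the RefSeq transcription start (GRCh38.p14) of both are shown as an example of each direction, 5′ to 3′ along the gene, with matches in capitals. They were chosen because neither window reaches into the gene as annotated in GENCODE 29. The motifs, searched on either strand, were CCAAT, then the E-box with the letters CACGTG, and as the last an ETS site spelled CCGGAAG.
NUP205: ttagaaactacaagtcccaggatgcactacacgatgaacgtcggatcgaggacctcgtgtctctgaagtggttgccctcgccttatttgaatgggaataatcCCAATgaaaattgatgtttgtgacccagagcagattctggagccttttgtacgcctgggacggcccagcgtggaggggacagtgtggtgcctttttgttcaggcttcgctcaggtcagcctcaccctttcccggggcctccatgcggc
NUP133: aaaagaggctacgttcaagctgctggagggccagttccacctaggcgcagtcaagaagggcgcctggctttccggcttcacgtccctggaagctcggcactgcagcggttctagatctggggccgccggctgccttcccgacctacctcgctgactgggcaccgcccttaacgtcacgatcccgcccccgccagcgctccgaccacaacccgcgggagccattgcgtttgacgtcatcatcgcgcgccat
The window of NUP205 (chr7:135557667-135557916, plus strand) holds 1 CCAAT box and neither other motif, and that of NUP133 (chr1:229508342-229508591, minus strand) holds none of the 3. RefSeq starts can differ from those of GENCODE 29, so windows of other members may reach into their genes. RefSeq windows were found for 45 of the 51 pore and carrier genes, 58 windows in all, since some genes have several starts. The ETS letters were in 11 of 35 pore windows (31.4%), 2 of 23 carrier windows (8.70%) and 14.8% of 12549 windows of tested protein-coding genes. The E-box was in 5.71% of pore windows, 21.7% of carrier windows and 8.47% of those of tested coding genes. CCAAT was in 14 of 35 pore windows, 10 of 23 carrier windows (43.5%) and 33.1% of those of tested coding genes. None of the 3 motifs contains another. Windows of 1 gene can overlap, so these shares are a description.

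Among the membrane nucleoporins, 2 of 4 fell. NUP210 (chr3:13316235-13420309, minus strand, GRCh38) had a signal of 119.5 and 111 in control, 81.6 and 77.02 in knockout, and 117 and 118 in rescue cells. The groups of knockout and control lay far apart, and rescue libraries fell inside the control range. Its log2 changes were -0.53 ± 0.06 (SE), limma adjusted p = 1.2e-05 in the knockout and 0.57 ± 0.06 (SE), limma adjusted p = 1.35e-05 in the rescue. POM121, an anchor used in the assembly of new pores, had 28.1 and 24.1 in control, 22.3 and 22.1 in knockout, and 27.1 and 26.6 in rescue cells and fell (-0.22 ± 0.08 (SE), limma adjusted p = 0.0308), a call lost in 4 of 14 alternatives, among them without either knockout library or the first control library. POM121 has a near-identical copy, POM121C, at 38.2 to 43.0 in all 6 libraries (log2 change 0.03 in the knockout), and reads may be split between them.

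NDC1, a membrane protein that recruits AAAS, had 40.7 and 37.9 in control, 34.5 and 36.1 in knockout, and 42.1 and 44.02 in rescue cells. It did not pass in the knockout (-0.15, adjusted p = 0.0773), and rose from knockout to rescue (0.28 ± 0.06 (SE), limma adjusted p = 0.00486). AAAS, which encodes ALADIN, had 13.6 and 12.7 in control, 15.4 and 14.9 in knockout, and 14.4 and 15.4 in rescue cells, with no call in either comparison (0.19, adjusted p = 0.059 and -0.02, adjusted p = 0.846). Its control libraries were the lowest of the 6.

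In the central channel 1 of 3 FG subunits fell, with a class median of 0.04 that was -0.03 after median centring and -0.02 after quantile normalization. NUP54 had 24.2 and 21.7 in control, 20.2 and 19.4 in knockout, and 22.5 and 24.2 in rescue cells and fell by a margin that 8 of 14 alternatives did not keep (-0.20 ± 0.07 (SE), limma adjusted p = 0.0452). NUP58 and NUP62, its partners in the channel, did not pass (0.04, adjusted p = 0.742 for NUP58 and 0.14, adjusted p = 0.0654 for NUP62). The exons of NUP62 overlap those of IL4I1 on the same strand, so its reads may be shared.

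On the cytoplasmic face 2 of 6 fell and 1 rose, with a median of 0.01 that was -0.05 under either scaling. RANBP2, the filament protein that binds Ran and ligates SUMO, had a signal of 56.6 and 53.2 in control, 46.99 and 47.3 in knockout, and 55.3 and 57.05 in rescue cells. Knockout libraries were below all others, and RANBP2 fell (-0.21 ± 0.06 (SE), limma adjusted p = 0.0107) and rose in the rescue (0.25 ± 0.06 (SE), limma adjusted p = 0.00604). The knockout call is lost without either knockout library. It shares long stretches with the RGPD genes, so its reads are uncertain. RGPD5 was at 9.59 to 11.6 throughout. NUP88, a partner of NUP214 and NUP98, had 19.04 and 16.6 in control, 14.98 and 15.2 in knockout, and 18.8 and 17.4 in rescue cells and fell (-0.23 ± 0.08 (SE), limma adjusted p = 0.0377), in a call that 7 of 14 alternatives did not keep.

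GLE1, which activates the helicase that strips proteins off exported messenger RNA, was the pore gene with the largest upward change. It had a signal of 21.2 and 18.7 in control, 24.7 and 23.6 in knockout, and 20.6 and 20.99 in rescue cells. Both knockout libraries lay above all others, with log2 changes of 0.27 ± 0.07 (SE), limma adjusted p = 0.0119 in the knockout and -0.21 ± 0.07 (SE), limma adjusted p = 0.0476 in the rescue. The first call is lost without knockout replicate 1, with an adjusted p of 0.0904, and the second in 6 of 14 alternatives, among them without any 1 knockout or rescue library.

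The leukaemia fusion partners NUP98 and NUP214 passed in no comparison, although NUP214 rose in the knockout without the first control library (adjusted p = 0.039). NUP98, an FG subunit whose gene also encodes the Y complex subunit NUP96, had 33.98 and 31.2 in control, 33.3 and 33.2 in knockout, and 34.3 and 35.4 in rescue cells. NUP214, an FG subunit of the cytoplasmic filaments, had 17.7 and 15.8 in control, 18.3 and 17.7 in knockout, and 18.1 and 18.3 in rescue cells. Their control and knockout libraries overlapped, with log2 changes of 0.03, adjusted p = 0.76 for NUP98 and 0.10, adjusted p = 0.325 for NUP214. NUP98 shares exon sequence with CHRNA10, and a gene-level signal does not separate a fusion transcript. RAE1, the export factor that binds NUP98, also did not pass (-0.01, adjusted p = 0.959).

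None of the 3 basket genes passed in the knockout. TPR, the filament that builds the basket, had a signal of 58.8 and 54.3 in control, 52.4 and 51.1 in knockout, and 58.3 and 57.7 in rescue cells. Both knockout libraries were lowest, with log2 changes of -0.13 ± 0.06 (SE), limma adjusted p = 0.113 and 0.16 ± 0.06 (SE), limma adjusted p = 0.0552. NUP153, which ties the basket to the ring, had 31.4 and 28.4 in control, 26.1 and 27.99 in knockout, and 32.8 and 32.99 in rescue cells and rose from knockout to rescue (0.28 ± 0.07 (SE), limma adjusted p = 0.00827, and -0.14, adjusted p = 0.125 in the knockout). NUP50, which helps release import cargo, had 17.5 and 16.2 in control, 14.9 and 14.6 in knockout, and 16.4 and 17.97 in rescue cells (-0.19, adjusted p = 0.0689 and 0.21, adjusted p = 0.0509). All 3 fell by the test in the knockout after median centring, after quantile normalization and without the second control library. From knockout to rescue TPR and NUP50 each rose by the test in 7 of 14 alternatives.

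**Figure D3:**
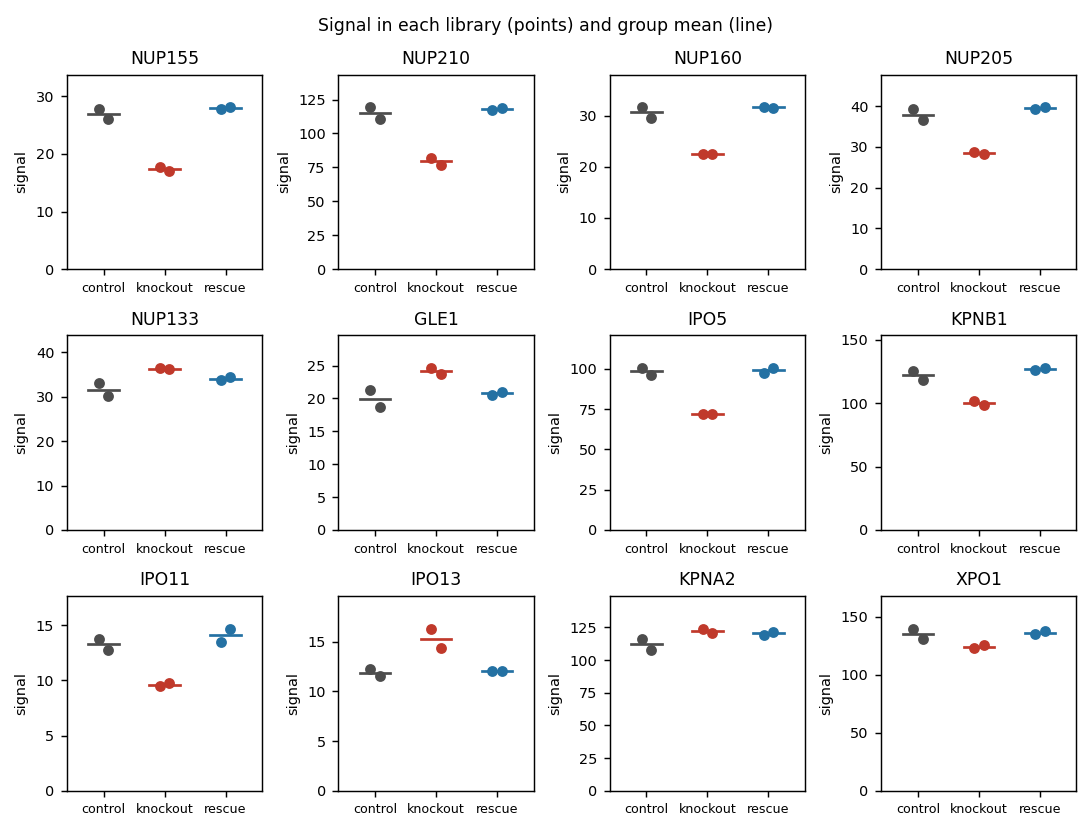
Signal in each library for 12 of the members, by group, each point 1 library and each line the mean of 2, on axes that start at 0. NUP155 is 17.1 to 17.8 in the knockout and 26.0 to 28.2 in the other 4 libraries, while IPO13 is highest in the knockout.

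Counts by type of carrier in the knockout were as follows, with no test between types. Over all genes 13.5% fell and 26.2% rose. Of 11 import receptors of the importin beta family 6 fell and 2 rose, with a median of -0.25. Of 5 exportins 2 fell, with a median of -0.16, and none of 6 importin alpha adaptors passed, with a median of 0.04 that was -0.03 after median centring and after quantile normalization. IPO5, an importer of ribosomal proteins and histones (chr13:97953658-98024297, plus strand, GRCh38), had a signal of 101 and 96.04 in control, 72.2 and 71.97 in knockout, and 97.4 and 101 in rescue cells. The knockout libraries were nearly equal and below all others, and rescue libraries lay within or at the control range. Its log2 changes were -0.44 ± 0.05 (SE), limma adjusted p = 3.35e-05 and 0.45 ± 0.05 (SE), limma adjusted p = 5.23e-05. IPO11, which imports ubiquitin-conjugating enzymes, had 13.8 and 12.8 in control, 9.5 and 9.75 in knockout, and 13.5 and 14.7 in rescue cells. Its log2 changes were -0.43 ± 0.08 (SE), limma adjusted p = 0.000949 and 0.50 ± 0.08 (SE), limma adjusted p = 0.000446, with shared exon sequence with LRRC70 and KIF2A as a limit.

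KPNB1 (chr17:47649476-47685505, plus strand) had a signal of 125 and 118 in control, 102 and 98.3 in knockout, and 126 and 128 in rescue cells. Knockout libraries were below all others, and the rescue lay just above the control. Its log2 changes were -0.28 ± 0.05 (SE), limma adjusted p = 0.00114 in the knockout and 0.34 ± 0.05 (SE), limma adjusted p = 0.000457 in the rescue. TNPO1, the importer of many RNA-binding proteins, had 45.3 and 42.2 in control, 36.1 and 36.98 in knockout, and 42.9 and 45.8 in rescue cells and fell (-0.25 ± 0.06 (SE), limma adjusted p = 0.00668), then rose in the rescue (0.27 ± 0.06 (SE), limma adjusted p = 0.00565). For TNPO1 too the knockout libraries lay apart from both other groups.

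The histone importers IPO9 and IPO4 fell as well. IPO9 had 29.6 and 26.5 in control, 23.5 and 23.2 in knockout, and 28.8 and 28.9 in rescue cells, with log2 changes of -0.26 ± 0.07 (SE), limma adjusted p = 0.00979 and 0.30 ± 0.07 (SE), limma adjusted p = 0.00555. IPO4 had 11.98 and 10.7 in control, 9.35 and 8.98 in knockout, and 11.96 and 12.3 in rescue cells, with -0.28 ± 0.08 (SE), limma adjusted p = 0.0168 and 0.37 ± 0.08 (SE), limma adjusted p = 0.00444. For both genes every knockout library was below every other library. The knockout call of IPO9 is lost without knockout replicate 2 (adjusted p = 0.0552), and that of IPO4 without either knockout library.

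IPO13, which carries cargo in both directions, and TNPO3, the importer of splicing factors rich in serine and arginine, rose. IPO13 had a signal of 12.3 and 11.5 in control, 16.3 and 14.3 in knockout, and 12.1 and 12.1 in rescue cells. Its knockout libraries were the highest, and they differed more from each other than the control or rescue libraries did. The log2 changes were 0.34 ± 0.08 (SE), limma adjusted p = 0.00544 and -0.32 ± 0.08 (SE), limma adjusted p = 0.0103, and without knockout replicate 1 neither passed (adjusted p = 0.118 for the first). The second was also lost without either rescue library. TNPO3 had 39.2 and 35.9 in control, 44.8 and 42.4 in knockout, and 38.7 and 39.5 in rescue cells, with 0.21 ± 0.06 (SE), limma adjusted p = 0.0183 in the knockout and no call in the rescue (-0.15, adjusted p = 0.0883). In 5 of 14 alternatives TNPO3 did fall from knockout to rescue. Its knockout call is lost without the second control library, without the first knockout library and without the trend in limma. TNPO2, the close relative of TNPO1, did not pass in the knockout (-0.09, adjusted p = 0.329) and rose in the rescue (0.22, adjusted p = 0.0362), a call lost in 5 of 14 alternatives, among them without any 1 knockout or rescue library. IPO7 and IPO8, a pair of related importers, passed neither test (-0.07, adjusted p = 0.391 and 0.01, adjusted p = 0.892 in the knockout). After median centring IPO7 rose from knockout to rescue.

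The importin alpha adaptors, which link classical import signals to KPNB1, ran from -0.04 to 0.13 in the knockout. KPNA2, the adaptor tied to proliferating cells, had a signal of 116 and 108 in control, 124 and 121 in knockout, and 119 and 122 in rescue cells. Knockout libraries lay above both control libraries by little and overlapped with the rescue, with log2 changes of 0.13 ± 0.06 (SE), limma adjusted p = 0.0791 and -0.03 ± 0.06 (SE), limma adjusted p = 0.764. KPNA1, KPNA3, KPNA4, KPNA5 and KPNA6 had limma adjusted p-values from 0.445 to 0.905 in the knockout. From knockout to rescue theirs ran from 0.162 for KPNA1 to 0.908 for KPNA6. KPNA2 rose in the knockout after quantile normalization (adjusted p = 0.016) and without the first control library (adjusted p = 0.014), and KPNA4 fell after median centring (adjusted p = 0.0396). KPNA1 passed from knockout to rescue in 5 of 14 alternatives. A difference from KPNB1 was visible within libraries, again in a pair chosen after seeing values: KPNB1 over KPNA2 was 1.08 and 1.10 in control, 0.822 and 0.812 in knockout and 1.06 and 1.05 in rescue libraries. IPO5 over TNPO3, chosen in the same way, was 2.57 and 2.67, then 1.61 and 1.70, then 2.51 and 2.54.

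Among the exportins XPO5 and XPO6 fell. XPO6, the exporter of actin, had a signal of 33.7 and 30.6 in control, 27.9 and 26.1 in knockout, and 33.2 and 33.3 in rescue cells, with log2 changes of -0.24 ± 0.07 (SE), limma adjusted p = 0.0119 and 0.29 ± 0.07 (SE), limma adjusted p = 0.00555. XPO5, the exporter of microRNA precursors, had 51.8 and 48.99 in control, 44.9 and 43.4 in knockout, and 55.2 and 54.8 in rescue cells, with -0.19 ± 0.06 (SE), limma adjusted p = 0.0218 and 0.31 ± 0.06 (SE), limma adjusted p = 0.00141. Knockout libraries of both genes were below all others, and those of XPO5 in the rescue were above the control. The knockout call of XPO6 is lost without knockout replicate 2 (adjusted p = 0.123), and that of XPO5 in 6 of 14 alternatives, among them without any 1 knockout or rescue library.

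XPO1 had a signal of 139.9 and 131 in control, 123 and 126 in knockout, and 135 and 137 in rescue cells. Its knockout libraries were the lowest, without passing in either comparison (-0.12 ± 0.05 (SE), limma adjusted p = 0.0895 and 0.13 ± 0.05 (SE), limma adjusted p = 0.0838). XPO4 did not pass either (-0.16, adjusted p = 0.125 and 0.21, adjusted p = 0.0551). Both XPO1 and XPO4 fell by the test in the knockout after median centring, after quantile normalization and without the second control library. From knockout to rescue XPO1 passed in 4 of 14 alternatives and XPO4 in 7. XPO7 did not pass (0.02, adjusted p = 0.813).

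In the guided cells labelled as overexpressing METTL16, more members rose than fell. METTL16 itself rose from knockout to rescue (0.93, limma adjusted p = 3.18e-06). In rescue against control it did not pass (0.30, limma adjusted p = 0.175). From knockout to rescue 25 of the 52 members rose, 3 fell and 24 did not pass, against 15.6% of all genes that rose and 15.9% that fell. Those that rose were 15 of 28 pore genes, 9 of 22 carriers and the antisense entry NUP50-AS1. Median log2 changes were 0.22 for pore genes, 0.14 for carriers and -0.01 for all genes. By class, 4 of 5 inner ring genes, 4 of 7 Y complex genes and 3 of 4 membrane genes rose. So did 1 of 3 central channel genes, 2 of 6 on the cytoplasmic face and 1 of 3 in the basket. Of the carriers, 7 of 11 importin beta family receptors and 2 of 5 exportins rose, and none of the 6 importin alpha genes did. GLE1, IPO13 and IPO9-AS1 fell. Without the second rescue library 15 members rose and none fell, against 1154 and 1330 of all genes. Fewer members also passed without knockout replicate 1, knockout replicate 2 or the first rescue library. The pore median was then 0.22, 0.21 and 0.24, and the carrier median 0.14, 0.16 and 0.16. That of all genes was 0.0042, -0.022 and 0.0049. Besides the calls named above, those of NUP43, NUP54 and NUP88 from knockout to rescue were lost in 5 of 14 alternatives, that of POM121 in 4, that of NUP153 in 2 and those of SEH1L, NDC1, RANBP2, TNPO1 and XPO6 in 1. In the knockout AAAS rose in 4 of 14 alternatives and NUP62 in 1, NDC1 fell in 3, and SEH1L, IPO7 and TNPO2 fell in 2, under both scalings. The knockout libraries serve in both comparisons, so the values of a gene in the 2 are not independent.

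The third comparison sets rescue against control, with a spread taken from all 6 libraries. No member passed it in limma, against 0.228% of all genes that rose and 0.055% that fell. At an unadjusted p under 0.05 stood 4 of 52 members (7.69%), 3 pore genes and 1 carrier, and 11.5% of all genes. With only these 2 groups fitted, 217 genes rose and 71 fell, and no member passed. Member log2 changes ran from -0.04 for NUP37 to 0.31 for NUP50-AS1, with medians of 0.05 for pore genes, 0.06 for carriers and 0.06 for all genes. The sign of these small medians depends on scaling: the pore median was -0.0012 after median centring and -0.015 after quantile normalization, and the carrier median 0.0068 and -0.0084. A call of 0 of 52 does not show that levels were equal. SEH1L, at 0.20 (adjusted p = 0.243), had the largest upward difference of the pore genes.

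Set side by side, both classes held genes that fell and a few that rose. In the knockout the share that fell was 42.9% of pore genes and 36.4% of carriers, against 13.5% of all genes. The share that rose was 10.7% and 9.09%, against 26.2% of all genes. The range of log2 changes was -0.59 to 0.27 for the pore and -0.44 to 0.34 for carriers. The difference between the classes was not tested, since their genes share the 6 libraries and are not replicates. Summed over the 29 pore genes, the signal was 952 and 881 in control, 820.5 and 813 in knockout and 954 and 970.1 in rescue libraries. Summed over 22 carriers it was 1007 and 935 in control, 902 and 895 in knockout and 999 and 1021 in rescue libraries. The signal of all genes summed to between 597160 (second knockout library) and 681928 (second rescue library). As a share of that total, pore genes made up 0.1423% and 0.1422% in control, 0.1264% and 0.1361% in knockout, and 0.1402% and 0.1423% in rescue libraries. Carriers made up 0.1505% and 0.1509%, then 0.1388% and 0.1499%, then 0.1469% and 0.1497%. The carrier share of the second knockout library was thus above both rescue libraries. The pore sum over the carrier sum was 0.946 and 0.942 in control, 0.910 and 0.908 in knockout and 0.955 and 0.950 in rescue libraries. Knockout libraries were lowest in this ratio and did not overlap with the others. Without NUP210, the highest pore gene, a split chosen after the values were seen, the ratio was 0.827 and 0.824 in control, 0.819 and 0.822 in knockout and 0.838 and 0.834 in rescue libraries; the knockout still ranked lowest, now close to the control.

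**Figure D4:**
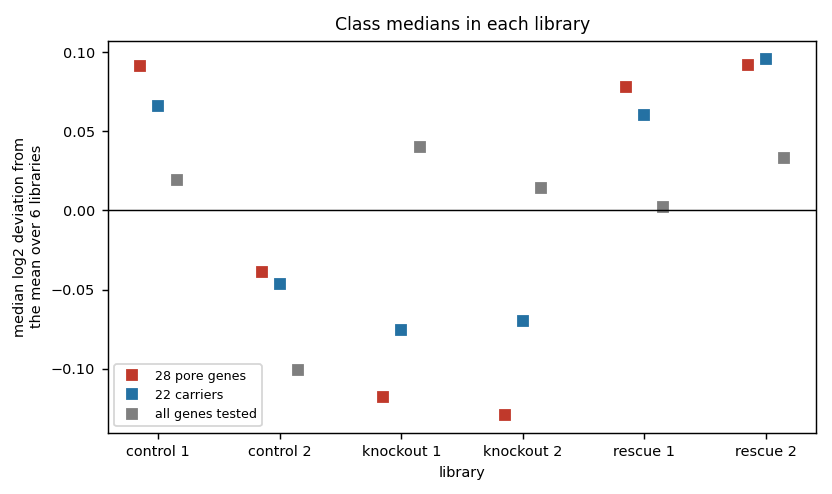
Median log2 deviation from each gene's mean over the 6 libraries, by library, for the 28 tested pore genes, the 22 carriers and all 12734 tested genes. Pore and carrier medians are lowest in both knockout libraries (-0.12 and -0.13 for the pore, -0.08 and -0.07 for carriers), and the all-gene median is lowest in the second control library (-0.10).

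The median deviation of the pore genes was 0.09 and -0.04 in control, -0.12 and -0.13 in knockout and 0.08 and 0.09 in rescue libraries. That of the carriers was 0.07 and -0.05, then -0.08 and -0.07, then 0.06 and 0.10. The pore median minus the carrier median was 0.025 and 0.0076 in control, -0.042 and -0.059 in knockout and 0.017 and -0.0040 in rescue libraries. This difference was lowest in the knockout libraries, which did not overlap with the others. Within members, the change in the knockout went with transcript length at a Spearman's rho of -0.22 and with mean signal at -0.16 over 50 genes. The same values over 10759 coding genes were -0.06 and -0.11. Genes share their libraries and their depth, so these are descriptions.

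The 3 entries that are not transport proteins had low signals. IPO9-AS1 had 1.07 and 0.786 in control, 1.48 and 1.69 in knockout, and 1.00 and 0.799 in rescue cells, with log2 changes of 0.43 ± 0.12 (SE), limma adjusted p = 0.0112 and -0.45 ± 0.12 (SE), limma adjusted p = 0.0111, opposite in sign to IPO9. Its knockout call is lost after quantile normalization and without the second control or the second knockout library, and its rescue call without the second knockout or the second rescue library. NUP50-AS1 had 1.78 and 1.05 in control, 1.16 and 1.1 in knockout, and 2.39 and 1.58 in rescue cells, with -0.17, adjusted p = 0.403 in the knockout and 0.48, adjusted p = 0.028 in the rescue. Its control and rescue libraries spread widely, and the rescue call was lost after median centring and without the first rescue library. The library kit was stranded, but whether the counting used the strand is not given in the sources used here. Reads of a gene and its antisense partner may thus be mixed in these values. Exons of IPO9-AS1 overlap those of IPO9 and of NAV1 on the opposite strand. In all, 3 members overlap exons of another gene of the table on the same strand and 11 on the opposite strand.

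A further list of nuclear transport, drawn up by role, held 26 symbols. Some of these were second names of a gene on the list or of a member. Of the symbols 20 were in the table and all were tested. A symbol that was not found does not always stand for a missing gene. In the knockout 4 rose and 4 fell, with a median of 0.03, against 26.2% of all genes that rose and 13.5% that fell. The tRNA exporter XPOT fell most, with a signal of 94.0 and 88.5 in control, 36.8 and 37.6 in knockout and 78.2 and 81.0 in rescue libraries. Its knockout libraries lay far below the others, with a log2 change of -1.27 (limma adjusted p = 3.40e-09). RCC1, the exchange factor that loads Ran, and RANBP1, a cofactor of Ran, also fell (-0.27 and -0.18), as did NUPL2, an older symbol of the cytoplasmic nucleoporin NUP42 (-0.29). RANGAP1, which makes Ran hydrolyse GTP, rose (0.19), as did the snurportin gene SNUPN (0.19), C11orf73 (0.22) and the Y complex subunit SEC13 (0.23). From knockout to rescue 6 rose and 1, SEC13, fell, against 15.6% and 15.9% of all genes. Of 15 proliferation genes 2 fell (BUB1, -0.64, and MYC, -0.49) and 2 rose (CCNB1, 0.30, and MCM5, 0.26) in the knockout, with a median of 0.04. The shares over all genes were 13.5% that fell and 26.2% that rose.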

How the data were processed

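RNA sequencing of 6 NOMO-1 libraries was used, 2 per group, with groups taken from the labels. Per the labels' protocols, ribosomal RNA was depleted and libraries were made with a stranded kit. Per the submitters' processing notes, STAR, RSEM and GRCh38 were used; versions and strand setting are not given in the sources used here. The table the authors deposited holds signal values, which are length-adjusted abundances of unstated kind (TPM or FPKM), and they were used without rescaling. No column was left unmatched to a sample.

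The fit took the 12734 of 15059 genes that reached a signal of 1 in 2 or more libraries. log2(signal + 1) was fitted with limma 3.58.1 (trend) in R 4.3.3 over all 6 libraries, with Benjamini-Hochberg adjustment over all genes tested and a threshold of 0.05. Fold changes on this scale understate those of low genes. Coordinates and lengths came from GENCODE 29 and promoter windows from RefSeq (GRCh38.p14). Read totals are not given in the sources used here. Depth was estimated from short transcripts, whose values lay within 0.15 of whole multiples of 1 step in 74.3% to 87.5% of cases (30% by chance for a fixed step, but the step was chosen on these values). Values of 10 pore genes and 8 carriers per comparison were printed by smallest adjusted p, with KPNB1, XPO1, NUP98, NUP214, TPR and KPNA2 whatever their values; other members are given more briefly. Members and gene lists were chosen with earlier results of these data known. Alternatives were other pseudocounts, filters, scalings and fits, a replicate block, and leaving out each library. KPNA7 was not analysed here.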

Additional observations from a re-analysis of the deposited data

How the results depend on the processing

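No member reversed a called direction in any of the alternatives tried. Of the 20 members that fell in the knockout 10 kept the call in all of them, as did none of the 6 that rose. From knockout to rescue, 13 of 25 that rose and none of 3 that fell kept it, and in rescue against control all 52 stayed without a call. The signal has 2 libraries per group and no read totals, which limits small changes most.

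Leaving out 1 library at a time gave 10 to 26 members that fell and 1 to 10 that rose in the knockout, and 15 to 30 that rose and 0 to 4 that fell from knockout to rescue. Quantile normalization gave 29 members that rose and 5 that fell from knockout to rescue, against 2819 and 2840 of all genes. The median log2 change of pore genes in the knockout was -0.21 with median centring and -0.21 with quantile normalization, and -0.21 to -0.085 with 1 library left out. That of carriers was -0.15, -0.14 and -0.15 to -0.014. For rescue against control, the pore median was -0.0012 with median centring, -0.015 with quantile normalization and 0.0032 to 0.13 with 1 library left out. The carrier median was 0.0068, -0.0084 and 0.0045 to 0.13. The all-gene median shifts by a like amount under these scalings, from 0.07 to 0.0081 with median centring in the knockout. The cause was not tested.

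Libraries with the same replicate number shared little deviation over all genes (correlations of -0.01, -0.05 and 0.10). With so few libraries per group, these correlations cannot decide whether the number marks a shared culture or batch. With the replicate block 20 members fell and 6 rose in the knockout, against 1875 and 3600 of all genes. From knockout to rescue 28 members rose and 3 fell with it, against 2214 and 2263 of all genes. In rescue against control the block gave 299 genes that rose and 83 that fell, against 29 and 7 in the main fit. No member was among them.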
